A study of Homo sapiens with 26 samples.

Results

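The nuclear lamina genes LMNA, LMNB1, LMNB2, LBR, TMPO, EMD, LEMD3, SUN1 and SUN2 were chosen by name, as the lamins and inner nuclear membrane proteins listed for the series, and all 9 were found among the 30331 named genes of the expression table. They were followed by bulk RNA sequencing in 13 tumors of ZR751, a human breast cancer cell line that is hormone receptor-positive and HER2-negative, grown under the skin of female NSG mice, which are immunodeficient. Resistant tumors (5 mice) had received the CDK4 inhibitor atirmociclib (oral, 60 mg/kg, 2 doses a day 7 hours apart) for 84 to 91 days in a separate study, and their treatment time label reads 2040 hours. Sensitive tumors (3 mice) had received the same dose for 3 days, and vehicle tumors (5 mice) had received vehicle, labelled DMSO, for 3 days; tumors of both of these groups were collected 3 hours after the last dose. Each tumor gave 2 libraries, A and B, whose values were averaged, so that the mouse was the replicate. No vehicle mice of the longer study are among these samples, so wherever resistant tumors are compared, resistance, length of treatment and study cannot be told apart.

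The lamina is a meshwork of lamin filaments on the inner face of the nuclear envelope, where it gives the nucleus its shape and holds silent chromatin at the periphery. A-type lamins come from LMNA and the B-type lamins from LMNB1 and LMNB2, and the inner membrane proteins bind lamins, chromatin or both. Loss of lamin B1 is widely used as a marker of cellular senescence, and lamin A and its partner LAP2-alpha, a product of TMPO, bind the RB protein on which CDK4 acts.

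Promoter stretches are shown for the 3 genes that fell furthest in this family (LMNB1, LBR and TMPO) and for 2 that were not lower in resistant tumors (LMNA and EMD), because the words searched are known from promoters of genes expressed in cycling cells. Sequences are from RefSeq on GRCh38.p14 and positions count from the transcript start, with -1 the base before it. Capitals mark TTTAAA, which is 1 of 2 words searched for the cell cycle homology region (CHR), the word CCAAT, which reads as ATTGG on the opposite strand, and the E2F word TTTCCCGC. Words inside an annotated exon of another transcript of the gene are shown with a short flank. A further CCAAT of TMPO, at -15 from its first start, is not shown.
LMNB1, first start, chr5:126776378-126776423 (+): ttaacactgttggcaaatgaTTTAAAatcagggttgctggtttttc
LMNB1, second start, chr5:126776933-126776962 (+): caagggccagatTTTAAAtttacaggcccg
LMNB1, second start, chr5:126776986-126777014 (+): tgcctgctccccATTGGcccatggtagtc
LBR, chr1:225428952-225428997 (-): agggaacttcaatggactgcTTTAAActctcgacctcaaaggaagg
TMPO, chr12:98515439-98515484 (+): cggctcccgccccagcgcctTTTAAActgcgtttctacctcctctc
TMPO, chr12:98515514-98515542 (+): cgagccgtctcgCCAATcaccgccgcgct
LMNA, chr1:156082407-156082572 (+): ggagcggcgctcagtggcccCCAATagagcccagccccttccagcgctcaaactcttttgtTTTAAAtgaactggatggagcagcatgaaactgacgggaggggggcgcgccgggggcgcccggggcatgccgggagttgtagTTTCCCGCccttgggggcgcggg
EMD, chrX:154379051-154379196 (+): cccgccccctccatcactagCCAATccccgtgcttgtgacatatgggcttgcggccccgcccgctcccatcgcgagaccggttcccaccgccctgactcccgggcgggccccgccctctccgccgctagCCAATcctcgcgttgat

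The search covered 250 bases before to 50 bases after each start on both strands, in the 14 RefSeq promoters of 8 of the 9 genes; SUN1 was not searched. The CHR words TTTGAA and TTTAAA were found in 6 genes of the family, and in 27.9% of all 27305 genes with a promoter. TTTAAA reads the same on both strands. It lay at -225 and -191 before the LMNB1 starts, at -156 before LBR, and at -114 and -131 before the 2 TMPO starts. It also lay at -105 before the first of 3 LMNA starts, and the other LMNA starts held none of the words searched. LMNB2 and SUN2 carried TTTGAA, and EMD and LEMD3 neither word. CCAAT was found in 6 genes and in 39.7% of all genes. The E2F words TTTCCCGC, TTTGGCGC, TTTCGCGC and TTTGCCGC were found in LMNA at -23 and LEMD3 at -134, and in 3.99% of all genes. A match here is a run of letters, and no binding was measured.

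Levels are given as TPM, a share of all transcripts that is scaled for gene length and can be compared between genes. In vehicle tumors the order was LMNA, SUN1, EMD, LMNB1, TMPO, LMNB2, SUN2, LEMD3 and LBR, and only the neighbours LMNB1 and TMPO, and LMNB2 and SUN2, overlapped in their ranges over mice. In sensitive tumors LMNB1 held the eighth place, against the fourth in vehicle tumors, with 13.9 to 19.1 TPM in sensitive tumors, below LEMD3 with 23.7 to 26.2 TPM. In resistant tumors LMNB1 (12.9 to 24.3 TPM) was in the seventh place and overlapped LEMD3 (18.2 to 20.8 TPM). LMNA was highest and LBR lowest in all 3 groups. The plot of levels by mouse shows the gap below the vehicle tumors for LMNB1, LMNB2, LBR and TMPO and the lack of one for EMD.

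**Figure D1:**
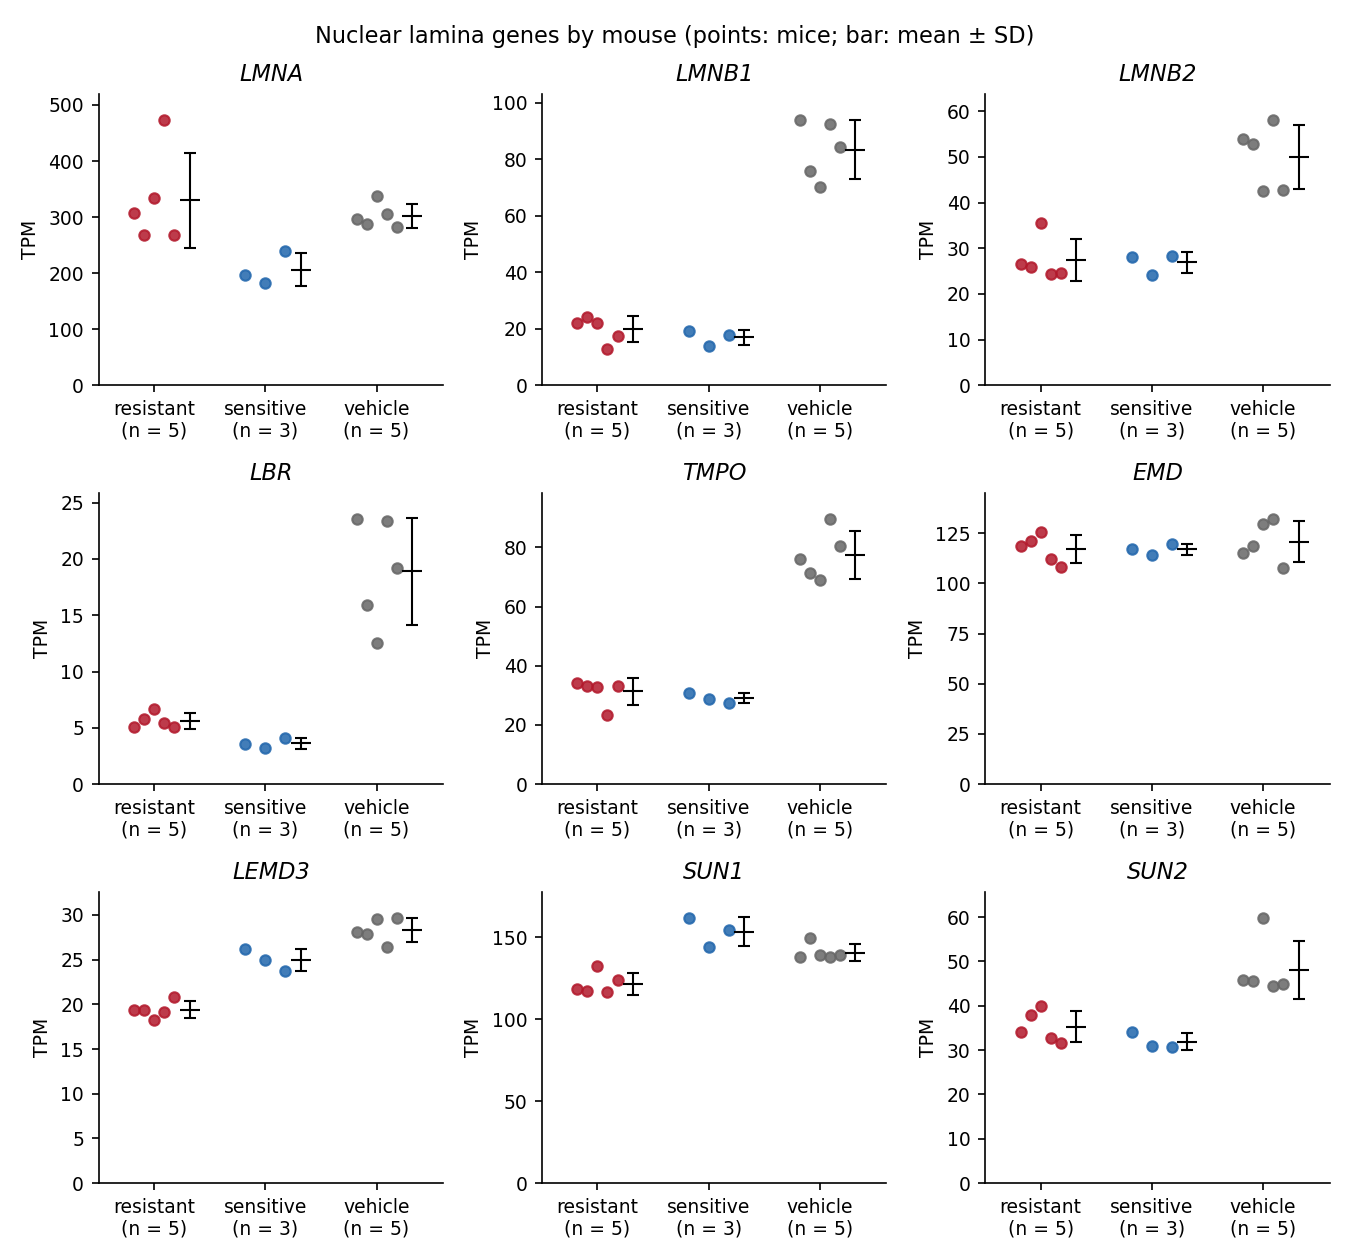
TPM of the 9 nuclear lamina genes in resistant (n = 5), sensitive (n = 3) and vehicle (n = 5) tumors; each point is a mouse, the mean of its 2 libraries, and the bars are mean ± SD. Every treated tumor lies below every vehicle tumor for LMNB1, LMNB2, LBR, TMPO, LEMD3 and SUN2, whereas the EMD groups overlap.

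Changes between groups were tested with limma on log2(TPM + 1) over 14079 genes, and a gene was called at a Benjamini-Hochberg adjusted p under 0.05 over all of them. Log2 changes are given relative to the median change of all tested genes, which was -0.07 in sensitive versus vehicle, -0.14 in resistant versus vehicle and -0.05 in resistant versus sensitive tumors; the SE and adjusted p are those of the change as fitted. After 3 days of atirmociclib 6 of the 9 genes were lower than in vehicle tumors and none was higher, where 12.6% of all tested genes were lower and 3.16% higher. In 7 of the 9 every sensitive tumor lay below every vehicle tumor and in none above, which held for 16.4% and 5.24% of all genes. The median change of the 9 was -0.50, against 0 for all genes. In resistant versus vehicle tumors 7 of the 9 were lower and none higher, where 32.5% of all tested genes were lower and 11.5% higher, and the median change of the 9 was -0.39. In 7 of the 9 every resistant tumor lay below every vehicle tumor and in none above, against 20.6% and 6.63% of all genes. Between resistant and sensitive tumors 2 were higher (LMNA and LBR) and 2 lower (LEMD3 and SUN1), where 9.56% of all genes were higher and 11.6% lower, and the median of the 9 was 0.14. In 2 of the 9 every resistant tumor lay above every sensitive tumor and in 2 below, against 12.3% and 18% of all genes. The background moved with the scaling between tumors. Median-of-ratios scaling gave 771 higher and 1066 lower genes in place of 445 and 1767 in sensitive versus vehicle, 2540 and 2439 in place of 1624 and 4570 in resistant versus vehicle, and 1715 and 1335 in place of 1346 and 1631 in resistant versus sensitive tumors. Quantile normalization gave 930 and 984, 2343 and 2770, and 1465 and 1807 in the same order of comparisons. With either scaling 5 of the 9 genes were lower and 1 higher in sensitive versus vehicle tumors. In resistant versus vehicle tumors 6 were lower and none higher with either. In resistant versus sensitive tumors median-of-ratios scaling gave 2 higher and 2 lower, and quantile normalization 1 higher and 2 lower.

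**Figure D2:**
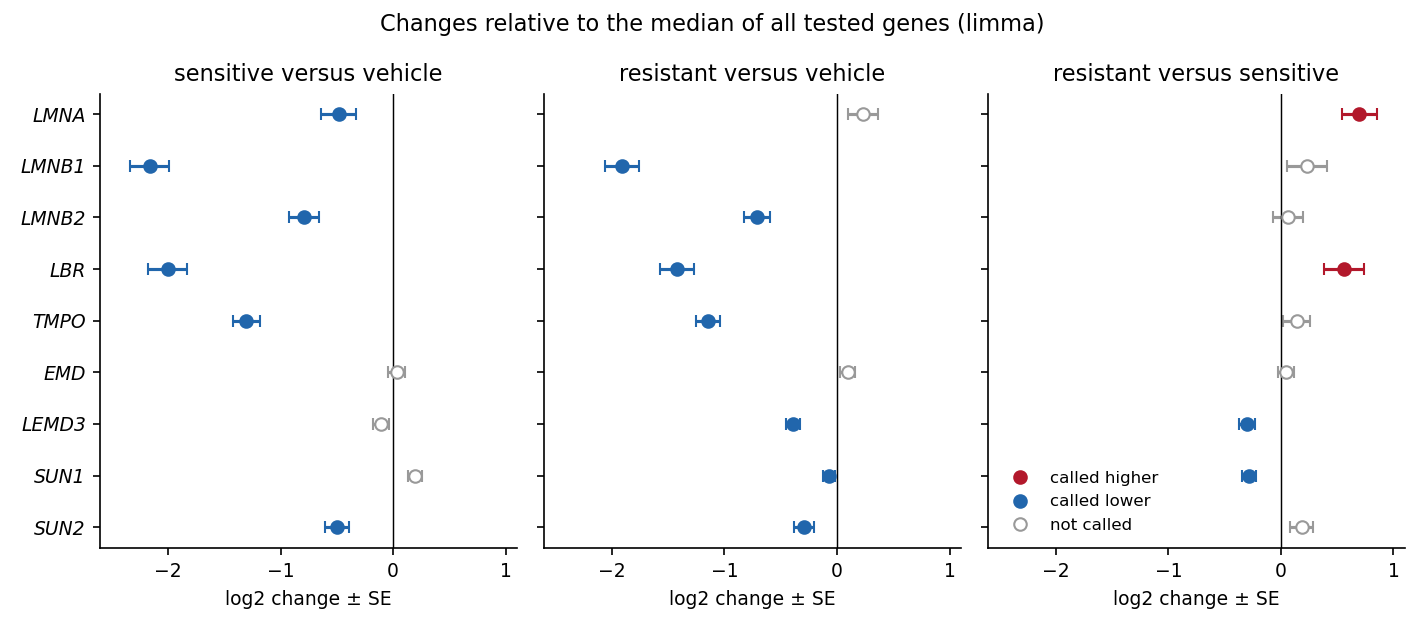
Log2 change ± SE of the 9 genes in the 3 comparisons, relative to the median of all tested genes; filled points passed an adjusted p under 0.05 in limma (blue lower, red higher) and open points did not. LMNB1 (-2.16) and LBR (-2.003) were the furthest to the left in sensitive versus vehicle tumors, and LMNA (0.70) the furthest to the right in resistant versus sensitive tumors.

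LMNA (chromosome 1, 156082573 to 156140089, plus strand; this and the positions below are from GENCODE 29 on GRCh38) encodes lamins A and C. Its level was 306, 267, 334, 473 and 268 TPM in the resistant tumors, 196, 183 and 239.6 TPM in the sensitive tumors, and 296, 288, 338, 306 and 283 TPM in the vehicle tumors. All 3 sensitive tumors lay below all others, the resistant and vehicle tumors overlapped, and the 473 TPM belonged to the tumor of mouse 9-8. The mean was 329.6 ± 85.02 TPM in resistant, 206 ± 29.8 TPM in sensitive and 302 ± 21.9 TPM in vehicle tumors (SD; n = 5, 3 and 5). The change was -0.48 ± 0.16 in sensitive versus vehicle (limma, adjusted p = 0.0270), 0.23 ± 0.13 in resistant versus vehicle (adjusted p = 0.590; 95% interval -0.06 to 0.52) and 0.70 ± 0.16 in resistant versus sensitive tumors (adjusted p = 0.0110). LMNA and LBR were the genes of the family that passed the test downward after 3 days and upward in resistant versus sensitive tumors. Leaving out sensitive mouse 6-5 ended both of these calls (adjusted p = 0.144 and 0.0592). The fall after 3 days was also not called without mouse 6-4 (adjusted p = 0.0676) or after median-of-ratios scaling (0.0754) or quantile normalization (0.0909). Without mouse 9-8 the rise between sensitive and resistant tumors was 0.55 (adjusted p = 0.00603).

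LMNB1 (chromosome 5, 126776623 to 126837020, plus strand) encodes lamin B1. It had 22.1, 24.3, 22.0, 12.9 and 17.3 TPM in the resistant tumors, 19.1, 13.9 and 17.9 TPM in the sensitive tumors, and 93.8, 75.8, 70.2, 92.6 and 84.3 TPM in the vehicle tumors. Resistant and sensitive tumors overlapped, and every one of them was far under the lowest vehicle tumor. The mean was 19.7 ± 4.59 TPM in resistant, 16.9 ± 2.74 TPM in sensitive and 83.3 ± 10.3 TPM in vehicle tumors. LMNB1 fell by 2.16 ± 0.18 log2 units in sensitive versus vehicle tumors (limma, adjusted p = 7.74e-07), with a 4.92-fold lower mean TPM, and by 1.91 ± 0.15 in resistant versus vehicle tumors (adjusted p = 5.78e-07), with a 4.23-fold lower mean. Between resistant and sensitive tumors the change was 0.23 with a 95% interval of -0.14 to 0.61 (adjusted p = 0.473).

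LMNB2 (chromosome 19, 2427638 to 2456996, minus strand), the other B-type lamin gene, changed less. Its levels were 26.5, 25.8, 35.5, 24.5 and 24.6 TPM in the resistant tumors, 28.1, 24.2 and 28.4 TPM in the sensitive tumors, and 53.9, 52.9, 42.5, 58.1 and 42.7 TPM in the vehicle tumors. No treated tumor reached the lowest vehicle tumor. LMNB2 averaged 27.4 ± 4.63 TPM in resistant, 26.9 ± 2.33 TPM in sensitive and 50.02 ± 7.05 TPM in vehicle tumors. The change was -0.79 ± 0.13 in sensitive versus vehicle (limma, adjusted p = 5.57e-04) and -0.71 ± 0.11 in resistant versus vehicle tumors (adjusted p = 8.69e-05). Between resistant and sensitive tumors it was 0.06, with an interval of -0.22 to 0.34 (adjusted p = 0.947). TIMM13, a mitochondrial import gene, overlaps LMNB2 on the same strand and passed the test in no comparison.

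Because the 3 lamin genes moved by different amounts, the composition of the lamin transcripts differed between the groups. LMNA made up 87.0 ± 3.31% of the summed lamin TPM in resistant, 82.4 ± 1.66% in sensitive and 69.4 ± 3.33% in vehicle tumors, and LMNB1 5.52 ± 1.88%, 6.80 ± 0.926% and 19.1 ± 2.29% in the same order. The ratio of LMNB1 to LMNB2 was 0.834, 0.940, 0.620, 0.526 and 0.706 in the resistant tumors, 0.680, 0.572 and 0.630 in the sensitive tumors, and 1.74, 1.43, 1.65, 1.59 and 1.98 in the vehicle tumors. LMNB1 thus exceeded LMNB2 in every vehicle tumor and in no treated tumor. The ratio of LMNA to the 2 B-type genes together was 5.33 to 12.7 in resistant, 4.15 to 5.18 in sensitive and 2.01 to 3.00 in vehicle tumors. These ranges did not overlap, and the 12.7 was again mouse 9-8, the next resistant tumor having 6.38. The summed lamin TPM was 377 ± 81.6 in resistant, 249.9 ± 33.1 in sensitive and 436 ± 21.1 in vehicle tumors. These shares and ratios were not tested.

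**Figure D3:**
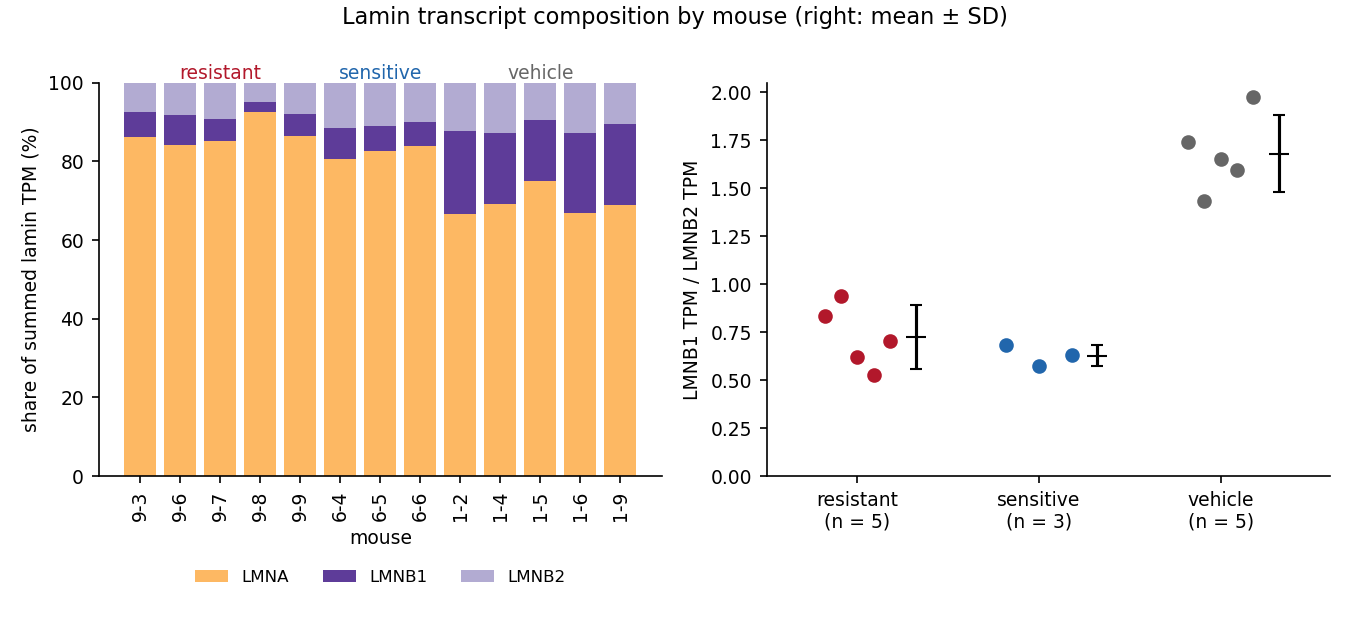
Left, share of each lamin gene in the summed lamin TPM of each mouse (%); right, ratio of LMNB1 TPM to LMNB2 TPM by mouse with mean ± SD (resistant n = 5, sensitive n = 3, vehicle n = 5). The LMNB1 share is 2.52 to 7.65% in resistant, 6.25 to 7.87% in sensitive and 15.6 to 21.1% in vehicle tumors, and the ratio is above 1 in the vehicle tumors alone.

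LBR (chromosome 1, 225401502 to 225428925, minus strand) encodes the lamin B receptor, which tethers heterochromatin to the nuclear periphery and also acts as a sterol reductase. It had 5.11, 5.76, 6.69, 5.43 and 5.04 TPM in the resistant tumors, 3.59, 3.18 and 4.13 TPM in the sensitive tumors, and 23.5, 15.9, 12.5, 23.4 and 19.2 TPM in the vehicle tumors. The 3 groups stood in separate ranges, sensitive lowest and vehicle highest. LBR averaged 5.60 ± 0.671 TPM in resistant, 3.63 ± 0.474 TPM in sensitive and 18.9 ± 4.77 TPM in vehicle tumors. The gene fell by 2.003 ± 0.17 log2 units in sensitive versus vehicle tumors (limma, adjusted p = 1.53e-06) and by 1.43 ± 0.15 in resistant versus vehicle tumors (adjusted p = 5.86e-06), where mean TPM was 5.21-fold and 3.37-fold lower. In resistant versus sensitive tumors LBR was 0.56 ± 0.17 higher at an adjusted p of 0.0494. That call was lost in 14 of 26 alternative fits, 10 of them fits that left out 1 mouse, with adjusted p between 0.0148 and 0.167 over all alternatives.

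TMPO (chromosome 12, 98515512 to 98550379, plus strand) encodes the lamina-associated polypeptide 2 isoforms, which bind lamins and chromatin. Its levels were 34.1, 33.2, 32.9, 23.2 and 33.2 TPM in the resistant tumors, 30.8, 28.9 and 27.6 TPM in the sensitive tumors, and 76.0, 71.5, 69.1, 89.6 and 80.4 TPM in the vehicle tumors. All treated tumors were below all vehicle tumors, and mouse 9-8 was below every other tumor. TMPO averaged 31.3 ± 4.55 TPM in resistant, 29.1 ± 1.61 TPM in sensitive and 77.3 ± 8.12 TPM in vehicle tumors. It fell by 1.30 ± 0.12 in sensitive versus vehicle (limma, adjusted p = 2.13e-06) and by 1.15 ± 0.10 in resistant versus vehicle tumors (adjusted p = 1.30e-06). Resistant and sensitive tumors differed by 0.14, with an interval of -0.12 to 0.40 (adjusted p = 0.609). TMPO-AS1, an antisense RNA that overlaps the start of TMPO, was also lower, with 0.84 ± 0.335 TPM in resistant, 0.325 ± 0.139 TPM in sensitive and 3.03 ± 0.288 TPM in vehicle tumors. The sources used here do not state whether counting used strand, so reads of the overlapping pair cannot be told apart.

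EMD and LEMD3 encode emerin and MAN1, which share with TMPO the LEM domain that binds the chromatin protein BAF. EMD (chromosome X, 154379197 to 154381523, plus strand) had 119, 121, 126, 112 and 108 TPM in the resistant tumors, 117, 114 and 119.7 TPM in the sensitive tumors, and 115, 119, 129.8, 132 and 108 TPM in the vehicle tumors. The groups lay within each other's ranges. The change was 0.03 in sensitive versus vehicle (95% interval -0.13 to 0.19; limma, adjusted p = 0.765), 0.10 in resistant versus vehicle (-0.04 to 0.23; adjusted p = 0.633) and 0.04 in resistant versus sensitive tumors (-0.12 to 0.21; adjusted p = 0.994). As fitted, before the median was taken off, these changes were -0.04, -0.04 and -0.001, and the adjusted p belong to those. EMD had the smallest absolute change of the 9 genes in sensitive versus vehicle and resistant versus sensitive tumors.

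LEMD3 (chromosome 12, 65169571 to 65248327, plus strand), whose product also binds SMAD proteins and restrains TGF-beta and BMP signaling, had 19.4, 19.4, 18.2, 19.2 and 20.8 TPM in the resistant tumors. It had 26.2, 24.9 and 23.7 TPM in the sensitive tumors, and 28.1, 27.9, 29.5, 26.5 and 29.7 TPM in the vehicle tumors. The 3 groups did not overlap, with resistant tumors lowest. The change was -0.10 ± 0.07 in sensitive versus vehicle tumors, which did not pass (limma, adjusted p = 0.108). It was -0.39 ± 0.06 in resistant versus vehicle (adjusted p = 2.97e-05) and -0.30 ± 0.07 in resistant versus sensitive tumors (adjusted p = 0.00498). Against vehicle, LMNB1, LMNB2 and TMPO were called lower in both treated groups, and LEMD3 in resistant tumors alone. Every sensitive tumor already lay below every vehicle tumor for LEMD3, and whether it fell later than those genes was not tested.

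SUN1 and SUN2 encode the inner membrane proteins of the LINC complex, which joins the lamina to the cytoskeleton through nesprins. SUN1 (chromosome 7, 816615 to 896435, plus strand) had 118, 117, 132, 116 and 124 TPM in the resistant tumors, 162, 144 and 154 TPM in the sensitive tumors, and 138, 149, 139, 138 and 139 TPM in the vehicle tumors. Resistant tumors were below all others, and sensitive and vehicle tumors overlapped. The change was -0.29 ± 0.06 in resistant versus sensitive tumors (limma, adjusted p = 0.00307), 0.20 ± 0.06 in sensitive versus vehicle (adjusted p = 0.197) and -0.07 ± 0.05 in resistant versus vehicle tumors (adjusted p = 0.00713). The last of these calls rested on the scaling. It was not made after median-of-ratios scaling (adjusted p = 0.332) or quantile normalization (0.0974), and both of these scalings called SUN1 higher in sensitive versus vehicle tumors (adjusted p = 0.0209 and 0.0162).

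SUN2 (chromosome 22, 38734725 to 38794143, minus strand) had 34.2, 38.0, 40.1, 32.8 and 31.6 TPM in the resistant tumors, 34.1, 31.0 and 30.7 TPM in the sensitive tumors, and 45.8, 45.6, 59.8, 44.4 and 45.0 TPM in the vehicle tumors. All treated tumors lay under all vehicle tumors. The change was -0.50 ± 0.11 in sensitive versus vehicle (limma, adjusted p = 0.00240) and -0.29 ± 0.09 in resistant versus vehicle tumors (adjusted p = 0.00208). Resistant and sensitive tumors differed by 0.18, with an interval of -0.04 to 0.41 (adjusted p = 0.370). The ratio of SUN1 to SUN2, which was not tested, was 3.09 to 3.91 in resistant, 4.64 to 5.04 in sensitive and 2.32 to 3.27 in vehicle tumors, so that the sensitive tumors stood above both other groups. GET4 overlaps SUN1, and DNAL4 and GTPBP1 overlap SUN2, and none of these 3 genes passed the test in any comparison.

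Proliferation genes moved beside the lamina genes. MKI67, the gene of the Ki-67 antigen, had 8.47, 7.69, 8.91, 2.36 and 3.79 TPM in the resistant tumors, 1.13, 0.970 and 1.99 TPM in the sensitive tumors, and 58.2, 46.1, 36.2, 46.5 and 42.1 TPM in the vehicle tumors. It stood in 3 separate ranges in the same order as LBR. MKI67 was 1.56 ± 0.31 log2 units higher in resistant than in sensitive tumors (limma, adjusted p = 0.00515), while LMNB1, LMNB2 and TMPO passed no test in that comparison. All 7 proliferation markers on the list were lower in sensitive versus vehicle tumors, where 12.6% of all tested genes were lower. In resistant versus vehicle tumors 5 were lower, against 32.5% of all genes. In resistant versus sensitive tumors 5 were higher, against 9.56% of all genes. Whether the changes of LMNB1, LMNB2 and TMPO differ from that of MKI67 was not tested, nor was the part of proliferation in the changes of the lamina genes. In bulk tumors fewer cells that express a gene and less RNA per cell cannot be told apart.

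**Figure D4:**
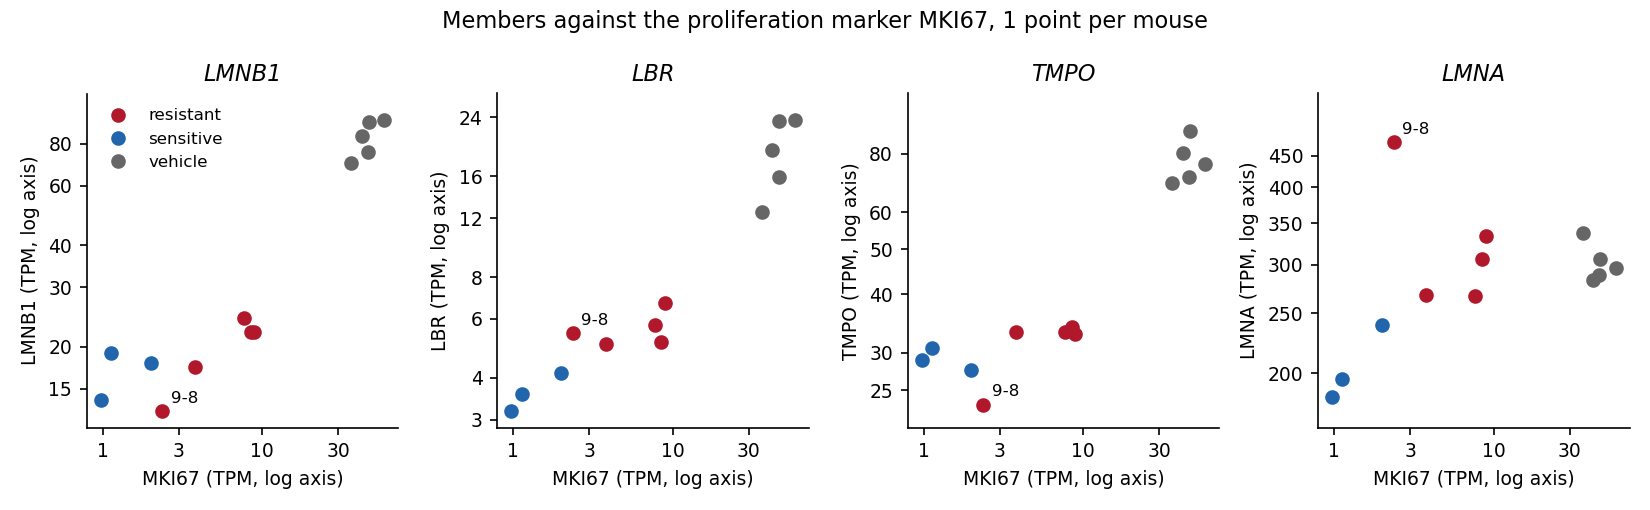
TPM of LMNB1, LBR, TMPO and LMNA against TPM of MKI67 (both axes logarithmic), 1 point for each mouse, with resistant mouse 9-8 named. Vehicle tumors form a separate cloud at 36.2 to 58.2 TPM of MKI67, and mouse 9-8 (2.36 TPM) has the lowest LMNB1 and TMPO and the highest LMNA of all 13 tumors.

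One resistant tumor, from mouse 9-8, stood apart in several of the genes. Among the 5 resistant tumors it was lowest for LMNB1 (12.9 TPM), LMNB2 (24.5 TPM), TMPO (23.2 TPM), SUN1 (116 TPM) and MKI67 (2.36 TPM), and highest for LMNA (473 TPM). The LMNB2 value lay next to the 24.6 TPM of the next resistant tumor. Vehicle mouse 1-5 shared some of these places among the 5 vehicle tumors, but not others. It was lowest for LMNB1 (70.2 TPM), LMNB2 (42.5 TPM, next to 42.7 TPM), TMPO (69.1 TPM) and MKI67 (36.2 TPM), and highest for LMNA (338 TPM). For SUN1 mouse 1-5 was not lowest. Mouse 1-5 was also lowest for LBR and highest for SUN2, where mouse 9-8 ranked 3 and 4 from the highest of the 5 resistant tumors. For EMD and LEMD3 mouse 1-5 ranked 2 from the highest and mouse 9-8 ranked 4. The 2 libraries of mouse 9-8 had 488 and 458 TPM for LMNA and 12.8 and 12.96 TPM for LMNB1. They differed by 0.20 log2 units for SUN1, 0.20 for EMD and 0.25 for LEMD3, each the largest gap of that gene in any mouse. For MKI67 they had 1.77 and 2.95 TPM, a gap of 0.51 log2 units, also the largest of that gene. For the family as a whole, libraries A and B of a mouse differed by a median of 0.03 to 0.09 log2 units for each gene, and the largest gap was 0.43 for LBR in mouse 6-6.

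Each gene was also compared with 10571 genes of at least 5 TPM for the likeness of its pattern over the 13 mice, by the root mean square difference of log2(TPM + 1) after centring each gene. For LMNB1 the closest were CDKN2C (0.23), NCAPD2 (0.23) and FBXO5 (0.23), for LBR KNSTRN (0.14), GMNN (0.15) and UBE2S (0.16), and for TMPO SPDL1 (0.15), SMC4 (0.15) and PRIM1 (0.17). CDKN2C is a CDK inhibitor, NCAPD2 and SMC4 are condensin subunits, FBXO5 and UBE2S act on the anaphase-promoting complex, KNSTRN and SPDL1 work at the spindle and kinetochore, GMNN is the licensing inhibitor geminin, and PRIM1 is a primase. LMNB2 was closest to RTN4R (0.12), FIGNL1 (0.12) and ALYREF (0.14), and SUN2 to TMEM54 (0.08), BUD13 (0.09) and CNPY3 (0.10). LMNA was closest to GPRC5C (0.18), RHOBTB2 (0.19) and DQ786325 (0.19), LEMD3 to WAPAL, BAZ1B and SIRT1 (0.05 to 0.06), SUN1 to CLSTN1, UBE2O and TNPO2 (0.05 to 0.06), and EMD to C19orf53, EIF3B and EIF6 (0.06 to 0.07). Genes that vary little are close to many others by this measure, and all distances share the same 13 tumors.

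The neighbours of the family in the nuclear envelope were taken from lists, whose counts stand beside the shares of all tested genes called higher and lower, which were 3.16% and 12.6% in sensitive versus vehicle, 11.5% and 32.5% in resistant versus vehicle, and 9.56% and 11.6% in resistant versus sensitive tumors. Of 12 other inner nuclear membrane and lamina-associated genes, 4 were lower in sensitive versus vehicle and 8 in resistant versus vehicle tumors, with none higher, and 2 were higher and 1 lower in resistant versus sensitive tumors. The list medians were -0.22, -0.17 and -0.01. The shares of all genes given here and for the lists below are those of the main scaling. With median-of-ratios scaling and quantile normalization fewer of all genes were lower against vehicle and more were higher. Median-of-ratios scaling gave 3 lower genes in sensitive versus vehicle and 6 in resistant versus vehicle tumors, and quantile normalization the same counts, with 1 higher in resistant versus vehicle tumors. NRM, which encodes nurim, had the largest fall of the 4 genes named here, with 6.81 ± 1.5 TPM in resistant, 4.22 ± 0.893 TPM in sensitive and 17.0 ± 2.65 TPM in vehicle tumors. Its change was -1.72 ± 0.18 in sensitive versus vehicle (limma, adjusted p = 8.95e-06), -1.09 ± 0.15 in resistant versus vehicle (5.12e-05) and 0.61 ± 0.18 in resistant versus sensitive tumors (0.0370). BANF1, which encodes BAF, changed by -0.33 ± 0.07 in sensitive versus vehicle (adjusted p = 0.00130) and by -0.33 ± 0.06 in resistant versus vehicle tumors (5.55e-05). In resistant versus vehicle tumors ANKLE2, which helps BAF reassemble the envelope after mitosis, changed by -0.19 (adjusted p = 0.00131) and TMEM201, which encodes SAMP1, by -0.46 (4.33e-04). The NRM call in resistant versus sensitive tumors was lost without mouse 6-4, 6-5, 9-3, 9-6, 9-7 or 9-9.

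All 30 nuclear pore genes on the list were tested, and 15 were lower in sensitive versus vehicle and 24 in resistant versus vehicle tumors, with none higher; 1 was higher and 9 were lower in resistant versus sensitive tumors. The list medians were -0.19, -0.25 and -0.05, and against vehicle each pore gene changed less than LMNB1. The counts depended on the scaling, since median-of-ratios scaling gave 8 and quantile normalization 7 lower genes in sensitive versus vehicle tumors, and 18 and 19 in resistant versus vehicle tumors, with 1 higher in the first of these by quantile normalization and 1 in the second by median-of-ratios scaling. In resistant versus sensitive tumors they gave 4 higher and 6 lower, and 3 higher and 8 lower genes. Over all 14079 tested genes the lower calls against vehicle fell with these scalings too. In sensitive versus vehicle tumors they went from 1767 to 1066 and 984, and in resistant versus vehicle tumors from 4570 to 2439 and 2770. Against vehicle a larger share of the pore genes than of all genes was still called lower with either scaling. NUP205 had 19.3 ± 1.64 TPM in resistant, 22.8 ± 2.72 TPM in sensitive and 29.9 ± 1.73 TPM in vehicle tumors, and NUP62 had 55.1 ± 3.63, 60.3 ± 3.20 and 79.7 ± 8.12 TPM in the same order. Both were lower in sensitive versus vehicle tumors (-0.31 and -0.32; limma, adjusted p = 0.0156 and 0.00757) and in resistant versus vehicle tumors (-0.48 and -0.39; adjusted p = 7.66e-05 and 1.28e-04). In resistant versus vehicle tumors NUP160, of the outer ring of the pore, changed by -0.45 (adjusted p = 6.69e-05), and RAE1, an mRNA export factor, by -0.35 (1.05e-04). In sensitive versus vehicle tumors the NUP205 call was lost without mouse 6-5 or 6-6 and the NUP62 call without mouse 6-6.

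The 5 lamin maturation enzymes modify the tail of prelamin A, and some of them also that of the B-type lamins. Among them 1 was lower in sensitive versus vehicle, 3 in resistant versus vehicle and 1 in resistant versus sensitive tumors, with none higher, where 12.6%, 32.5% and 11.6% of all genes were lower. FNTA, a farnesyltransferase subunit, had 55.2 ± 3.77 TPM in resistant, 74.9 ± 1.62 TPM in sensitive and 80.3 ± 8.91 TPM in vehicle tumors. It changed by -0.39 ± 0.08 in resistant versus vehicle (limma, adjusted p = 1.39e-04) and by -0.39 ± 0.09 in resistant versus sensitive tumors (0.00451). ICMT, the methyltransferase, changed by -0.40 ± 0.09 in sensitive versus vehicle tumors (adjusted p = 0.00318) and by -0.11 ± 0.08 in resistant versus vehicle tumors (0.0222). FNTB, the other farnesyltransferase subunit, changed by -0.21 in resistant versus vehicle tumors (adjusted p = 0.0449). ZMPSTE24, the protease that cuts prelamin A, had 57.3 ± 5.48, 56.0 ± 4.71 and 64.5 ± 4.12 TPM in resistant, sensitive and vehicle tumors and passed no test. With median-of-ratios scaling and with quantile normalization 1 enzyme was lower in resistant versus vehicle tumors and 1 was higher in resistant versus sensitive tumors. The calls in resistant versus vehicle tumors were lost for ICMT (adjusted p = 0.321 and 0.204) and FNTB (0.183 and 0.238). ICMT was also not called in that comparison without mouse 9-6 or 9-8, and FNTB in 8 of the fits that left out 1 mouse.

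Of 11 LINC complex partners, a list that includes torsins and their activators, 8 passed the filter on low values. In sensitive versus vehicle tumors 1 was higher and 3 lower, in resistant versus vehicle tumors 1 was higher and 4 lower, and in resistant versus sensitive tumors 2 were higher. In resistant versus vehicle tumors these counts lie near the 11.5% higher and 32.5% lower of all genes. SYNE2, the gene of nesprin-2, had 19.99 ± 3.96 TPM in resistant, 16.7 ± 2.57 TPM in sensitive and 27.5 ± 4.74 TPM in vehicle tumors. It changed by -0.61 ± 0.18 in sensitive versus vehicle (limma, adjusted p = 0.0242) and by -0.31 ± 0.16 in resistant versus vehicle tumors (0.0367). TOR1A and TOR1B, torsin ATPases of the envelope, were lower in sensitive versus vehicle tumors (-0.16 and -0.27; adjusted p = 0.0267 and 0.00978) and higher in resistant versus sensitive tumors (0.39 and 0.34; adjusted p = 0.00343 and 0.0203). TOR1AIP1, which activates torsins and binds lamins, changed by -0.09 in resistant versus vehicle tumors (adjusted p = 0.0115). In resistant versus vehicle tumors median-of-ratios scaling gave 2 higher and none lower, and quantile normalization 2 higher and 1 lower. In both other scalings the calls were lost for SYNE2 in resistant versus vehicle (adjusted p = 0.123 with median-of-ratios scaling and 0.151 with quantile normalization), for TOR1A in sensitive versus vehicle (0.189 and 0.234) and for TOR1AIP1 in resistant versus vehicle tumors (0.268 and 0.188). The SYNE2 calls were each lost in at least 4 fits that left out 1 mouse, and those of TOR1A and TOR1B in sensitive versus vehicle and of TOR1B in resistant versus sensitive tumors without mouse 6-5 or 6-6, that of TOR1A also without mouse 1-2.

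Since lamin B1 loss is used as a senescence marker, other genes linked to senescence were set beside it. Of 18 such genes 9 passed the filter; 2 were lower in sensitive versus vehicle, 2 were higher and 4 lower in resistant versus vehicle, and 2 were higher and 2 lower in resistant versus sensitive tumors. The counts of lower genes against vehicle lie near the 12.6% and 32.5% of all genes in these comparisons. HMGB2, a chromatin protein lost in senescence, had 25.7 ± 9.92 TPM in resistant, 9.84 ± 1.77 TPM in sensitive and 147 ± 31.2 TPM in vehicle tumors, and HMGB1 had 171 ± 7.12, 154 ± 6.44 and 262 ± 23.3 TPM in the same order. HMGB2 changed by -3.69 ± 0.27 in sensitive versus vehicle (limma, adjusted p = 3.11e-07), by -2.40 ± 0.23 in resistant versus vehicle (3.98e-06) and by 1.27 ± 0.27 in resistant versus sensitive tumors (0.00704). CDKN2A, the p16 gene, had 6.36 ± 2.68 TPM in resistant, 12.9 ± 1.91 TPM in sensitive and 15.2 ± 5.24 TPM in vehicle tumors, and it was lower in resistant versus vehicle (-1.01 ± 0.25; adjusted p = 0.00253) and resistant versus sensitive tumors (-0.94 ± 0.29; 0.0274). GDF15, a secreted stress factor, was higher in resistant tumors, with 19.8 ± 9.54 TPM in resistant, 5.40 ± 1.75 TPM in sensitive and 6.28 ± 2.85 TPM in vehicle tumors (1.61 ± 0.34 against vehicle; adjusted p = 0.00361). The CDKN2A call in resistant versus sensitive tumors was lost in 6 of the fits that left out 1 mouse, any of the 3 sensitive mice among them. In sensitive versus vehicle tumors the called genes were HMGB1 and HMGB2, both lower, and in both comparisons of resistant tumors called genes lay in both directions. HMGB2 is also known as a gene of dividing cells.

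**Figure D5:**
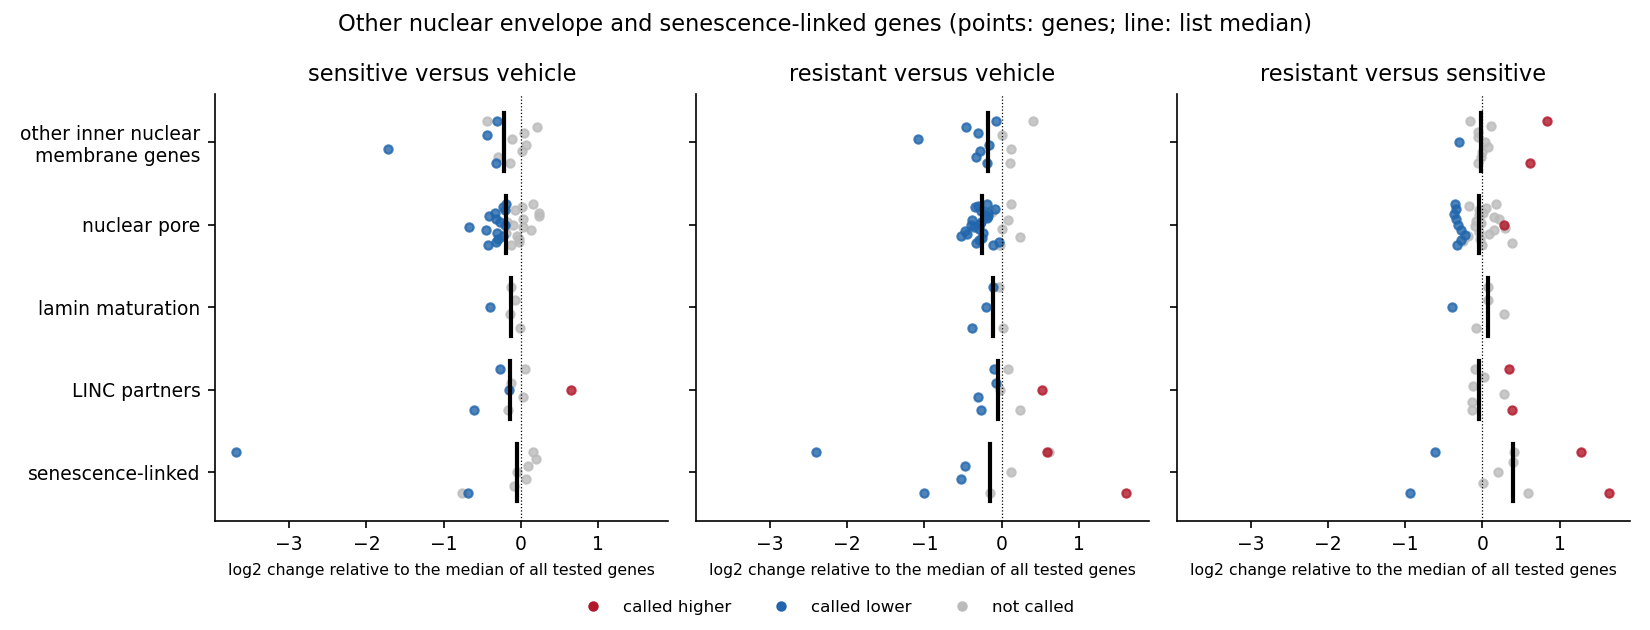
Log2 change of each tested gene of 5 lists, relative to the median of all tested genes. The lists hold 12 other inner nuclear membrane and lamina-associated genes, 30 nuclear pore genes and 5 lamin maturation enzymes. They also hold 8 LINC partners, torsin genes among them, and 9 senescence-linked genes. Points are genes, blue lower, red higher and grey not called, and the black line is the list median. The nuclear pore genes cluster just left of 0 against vehicle, with medians of -0.19 in sensitive and -0.25 in resistant tumors, and HMGB2 is the point furthest to the left, at -3.69 and -2.40.

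The labelled cell type was checked with 10 luminal breast epithelial markers, all of which had at least 1 TPM, with sums of 26873 to 31886 TPM in resistant, 14597 to 17945 TPM in sensitive and 11524 to 18442 TPM in vehicle tumors. TFF1, an estrogen-responsive gene, made up much of the higher sum, with 12018 ± 2735 TPM in resistant, 3078 ± 1039 TPM in sensitive and 988 ± 941 TPM in vehicle tumors. In resistant versus vehicle tumors 3 of the 10 were called higher (TFF1, KRT19 and XBP1) and 3 lower, where 11.5% and 32.5% of all tested genes were. The lower ones, a share near that of all genes, were GATA3 at -0.52, EPCAM at -0.16 and FOXA1 at -0.10 (limma, adjusted p = 2.36e-04, 0.00174 and 0.0173). With median-of-ratios scaling 4 were higher and 1 lower, and the EPCAM call was lost (limma, adjusted p = 0.0646). With quantile normalization 2 were higher and 2 lower. Fibroblast markers summed to 4.58 to 10.5, 5.76 to 8.36 and 7.81 to 13.3 TPM in resistant, sensitive and vehicle tumors. COL1A1 alone reached a mean of 1 TPM, and PDGFRA and THY1 were at 0 in both treated groups. Macrophage and leukocyte markers summed to 9.05 to 15.99, 6.76 to 9.32 and 4.40 to 8.08 TPM, with AIF1 at 0 in every group and PTPRC at 0 in resistant and sensitive tumors. Of the 5 that were tested, CD68 and LYZ were called higher in resistant tumors (1.53 and 1.43 against vehicle, 1.03 and 1.101 against sensitive tumors), and CSF1R was called lower (-0.43 and -1.06). Of all genes 11.5% were higher and 32.5% lower against vehicle, and 9.56% and 11.6% against sensitive tumors. LYZ (1.85 to 4.65 TPM in resistant tumors) met the 1 TPM filter mainly through that group. CSF1R, at most 0.2 TPM in resistant tumors, met it through the other groups alone. These 2 calls are thus not independent of the filter. Endothelial markers summed to at most 1.21 TPM and skeletal muscle and adipocyte markers to at most 2.39 TPM in any tumor. The genes carry human symbols, whereas the host of these tumors is a mouse. How reads of mouse origin were treated is not stated, so these sums cannot give the content of mouse stroma. The part of such cells in the changes of the lamina genes was not tested.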

How the data were processed

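The authors deposited 1 table of TPM values for 26 libraries, A and B from each of 13 mice. Per the submitters' processing notes, the tools were FastQC, STAR, HTSeq and RSEM, with the builds GRCh38 and GRCm38 and no roles named. The sources used here do not state how reads of mouse origin were treated, or at which step the libraries of a mouse were split. Library sums were 999847 to 999887 TPM, and 13212 to 13578 genes had at least 1 TPM. Depth is unknown, so no counting interval is given.

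Of 30332 entries, 1 without a gene name was left out. Values of log2(TPM + 1) were averaged over A and B for each mouse. Genes with a mean of at least 1 TPM in at least 3 mice were kept, and 1 limma model with the trend option (limma 3.58.1, R 4.3.3) covered all 13 mice, with two-sided tests. This scale understates changes of low genes. The model was tested on simulated data. Members, lists and naming rules were chosen with earlier results of these data known. The text names the 9 genes, MKI67, up to 4 genes of each list by smallest adjusted p, the 3 closest patterns and overlapping genes. The letters A and B pair no mice across groups. The model was refitted under 26 alternatives.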

Additional observations from a re-analysis of the deposited data

Results flagged for a closer look

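In 4 of 18 sets of values (9 genes in the 5 resistant and the 5 vehicle tumors), 1 tumor lay far from the other 4 by Dixon's criterion, which chance meets in about 1 of 20. LMNB2 had 35.5 TPM in resistant mouse 9-7, against 24.5 to 26.5 TPM in the other resistant tumors. TMPO had 23.2 TPM in resistant mouse 9-8, against 32.9 to 34.1 TPM. In the vehicle tumors SUN1 had 149 TPM in mouse 1-4, against 138 to 139 TPM, and SUN2 had 59.8 TPM in mouse 1-5, against 44.4 to 45.8 TPM.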

How the results depend on the processing

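Of 27 changes (9 genes in 3 comparisons), 18 kept their direction and their side of the threshold in all 26 alternatives, among them the falls of LMNB1, LMNB2, LBR, TMPO and SUN2 against vehicle in both treated groups and of LEMD3 and SUN1 in resistant versus sensitive tumors. Values that turned in sign were all near 0. With no filter on low values EMD was at -0.00839 in resistant versus vehicle and -0.0229 in sensitive versus vehicle tumors. Leaving out 1 mouse gave -0.0126 (without vehicle mouse 1-9) to 0.0907 for EMD in sensitive versus vehicle tumors, and -0.0247 (without resistant mouse 9-7) to 0.106 for LMNB2 in resistant versus sensitive tumors. The number of genes higher in resistant versus sensitive tumors was 1 in place of 2 with no filter, with quantile normalization, with no trend option and with the B libraries alone, and 0 to 2 when 1 mouse was left out, with 0 without mouse 6-5. In sensitive versus vehicle tumors it was 1 in place of 0 (SUN1) with median-of-ratios scaling, quantile normalization and the B libraries alone. The B libraries alone also ended the SUN1 call in resistant versus vehicle tumors (adjusted p = 0.0626), and array weights called LEMD3 lower in sensitive versus vehicle tumors (0.0231). Of 49 calls for the leading genes of the neighbouring lists and the proliferation markers, 33 were made in all 26 alternatives, 16 were lost in at least 1, and none turned in sign. The cause of these changes was not tested.

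With all 26 libraries fitted and the library letter as a replicate block, 6 genes were lower in sensitive versus vehicle and 7 in resistant versus vehicle tumors, and it changed no call. Over all genes, 100 to 1023 were higher and 801 to 3390 lower in sensitive versus vehicle, 1161 to 2540 and 2439 to 5145 in resistant versus vehicle, and 673 to 2036 and 695 to 2365 in resistant versus sensitive tumors. The lowest counts in sensitive versus vehicle came without mouse 6-5, 1 of only 3 sensitive mice. TPM gives no depth, so the precision of low genes such as LBR is known from the spread between tumors alone.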
